A study of Homo sapiens with 5 samples.

Results

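The integrated stress response genes followed here are ATF4, the transcription factor at the centre of that response, together with its known target genes and some of its regulators. They were chosen by symbol from a list of 33 genes that leaves out transporters and tRNA synthetases, and all 33 were among the 17297 genes of the deposited table. The measurement was the number of ribosome footprints on each gene in HCT116, a human colorectal carcinoma line. The mutant group (MUT) had 3 libraries of cells edited with CRISPR/Cas9 to be homozygous for the change N106S in eIF6, a factor that binds the large ribosomal subunit and keeps it from joining the small one. The WT cells were HCT116 with the genotype labelled Wt, with 2 libraries. Both groups were grown in the same medium with no drug or amino acid withdrawal named in the labels. The mutant cells are described as clones, but the labels state neither how many clones were used nor whether each library had its own culture. A p-value here measures spread between libraries only, and part of that spread may be technical.

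When cells lack amino acids, accumulate unfolded protein or meet other stress, kinases phosphorylate the initiation factor eIF2. Initiation then slows on most mRNAs, while short upstream reading frames let ribosomes reach the coding regions of a few, among them ATF4 and ATF5. ATF4 pairs with C/EBP proteins on DNA elements of its target genes, which supply amino acids, charge tRNA and, under lasting stress, promote cell death. In colorectal cancer cells this programme is known for sustaining amino acid supply.

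Footprints on these genes moved in both directions. Of the 33 genes, 30 passed the filter on low counts and were tested. In MUT cells 4 rose (ATF5, ATF3, SESN2 and GCN1), 7 fell (ASNS, CTH, IMPACT, PSPH, MTHFD2, PSAT1 and CEBPG) and 19 did not pass, by edgeR's quasi-likelihood test at a Benjamini-Hochberg adjusted p under 0.05 over all genes tested. That is 36.7% called, where 22.9% of all 11991 genes tested were called, 10% as higher and 12.9% as lower. All MUT libraries lay above all WT libraries for 6 tested members and below them for 10, where 25.4% and 25.3% of all genes tested were separated that way (50.7% in all). The median log2 fold change, MUT over WT, was -0.07 over the 30 members and 0.0024 over all genes tested. ATF4 itself is among the genes that did not pass.

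The balance of higher and lower calls over all genes, the background, moved with the scaling, while the members' call counts changed little. The members' median log2 fold change did move with the scaling. It went from -0.07 to 0.0019 with library size only, while that of all genes went from 0.0024 to 0.07. With upper-quartile scaling 13% of all genes were called higher and 10.1% lower (23.1% in all), and 4 members rose and 7 fell. With library size only the background was 14.6% higher and 8.67% lower (23.3% in all), and 4 members rose and 6 fell. With RLE scaling the members' counts were the same, and 1202 genes in all were called higher and 1548 lower. DESeq2 called 5.09% of all genes higher and 7.95% lower (13% in all), with 4 members higher and 6 lower. limma-voom called 8.56% higher and 12.7% lower (21.3% in all). Without a count filter the shares were 7.46% and 8.43% (15.9% in all), and with a stricter one 11.9% and 14.2% (26.2% in all), and in these 3 settings 4 members rose and 7 fell. With the replicate number as a block 12.8% of all genes rose and 15.9% fell (28.7% in all), and 5 members rose and 7 fell. Without WT replicate 1 the background was 5.22% higher and 8.43% lower (13.7% in all), with 4 members higher and 7 lower. Without WT replicate 2 it was 4.12% higher and 5.93% lower (10% in all), with 3 members higher and 4 lower. Leaving out MUT replicate 1, 2 or 3 gave a background of 6.04%, 8.78% or 9.17% higher and 7.6%, 10.9% or 11.3% lower (13.6%, 19.7% or 20.4% in all), with 4 members higher and 6 or 7 lower.

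**Figure D1:**
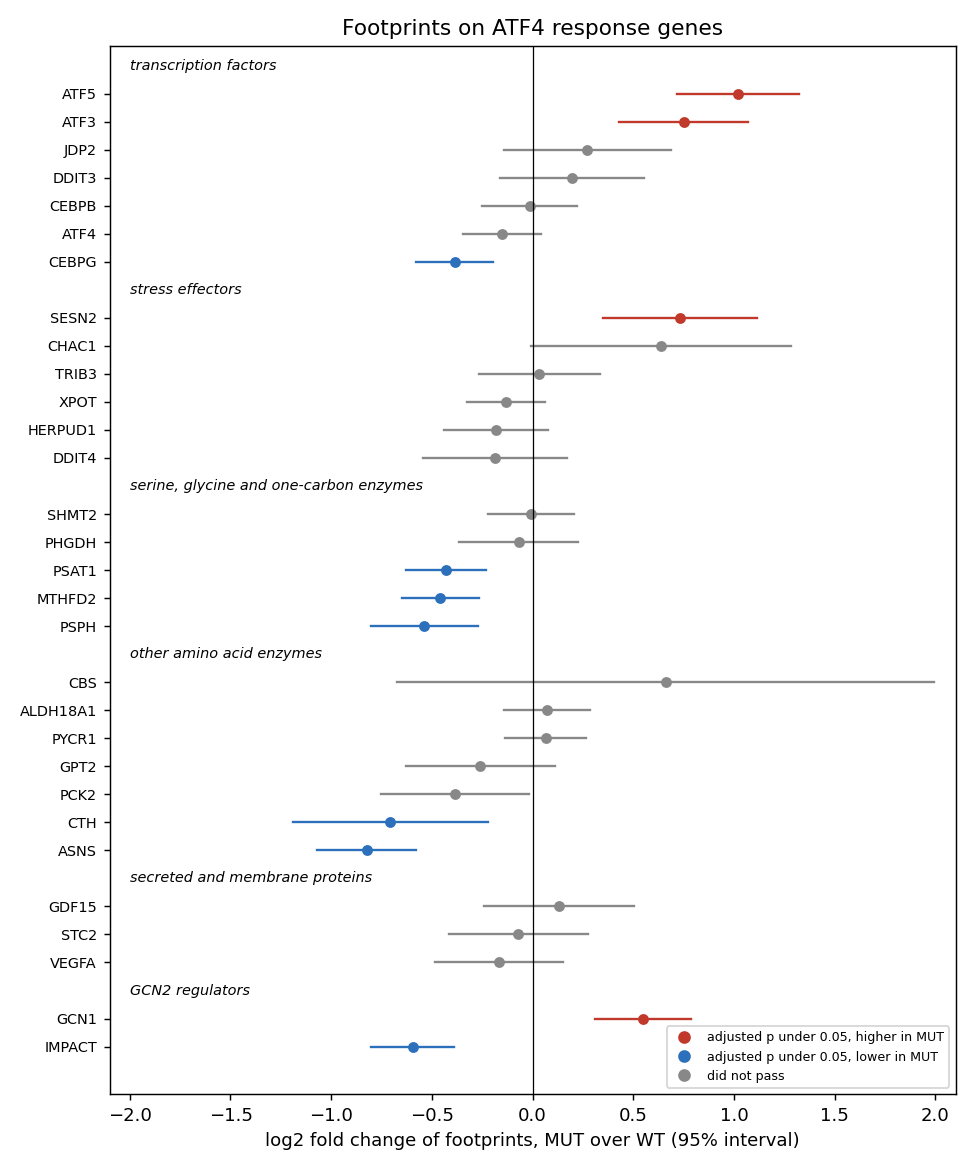
Log2 fold change of footprints (MUT over WT) with its 95% interval for the 30 tested genes, grouped by role; red and blue mark genes past an adjusted p of 0.05. ATF5 at 1.02 and ASNS at -0.82 mark the ends of the range, and ATF4 lies at -0.15 with an interval that spans 0.

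The libraries held 3076137, 3755991 and 3821176 counts in MUT replicates 1, 2 and 3, and 2095217 and 3128144 in WT replicates 1 and 2. The 33 genes took 0.284%, 0.284% and 0.278% of those counts in MUT, against 0.301% and 0.298% in WT. Every MUT share was below both WT shares, but much of that gap came from MTHFD2 and ASNS. In mean CPM (counts scaled to a common library size) the 33 genes summed to 2771 in MUT and 3097 in WT. MTHFD2 had 368 CPM in MUT and 507 in WT, and ASNS 85.4 and 150, while 4 members rose. The summed share therefore does not describe the set gene by gene. EIF6 had 157 ± 10.7 CPM in MUT (SD, n = 3) and 178 ± 9.16 CPM in WT (SD, n = 2). EIF6 did not pass (adjusted p 0.215 in edgeR), and its count does not check a change of 1 amino acid. Of 9 tested markers of colon epithelium 2 rose (KRT8 and KRT19), 3 fell (EPCAM, CDH1 and CLDN7) and 4 did not pass. The share called over all genes tested was 22.9%. The marker list summed to 1189 to 1500 CPM in MUT and 1138 to 1232 CPM in WT, mostly from KRT8, KRT18 and KRT19. That sum hides single genes: CDH1 had a mean of 11.2 CPM in MUT and 21.2 CPM in WT, and KRT8 371 and 287 CPM. VIL1 and CDX1 had at most 2 counts in any library, while the intestinal factor CDX2 had 91, 125 and 123 counts in MUT and 55 and 72 in WT. The part of these markers in the results was not tested. Of 16 markers of other cell types 13 were in the table, 11 of them had under 10 counts in every library, and the list summed to 14.1 to 17.2 CPM in MUT and 12.4 to 20 CPM in WT. In bulk cells, a change in some cells and a smaller change in all of them cannot be told apart, and without RNA libraries a change in mRNA is not separated from one in ribosomes per mRNA.

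The binding site of ATF4 and its C/EBP partners gives a sequence view of the set. The motif TGATGNAA, the core of the C/EBP-ATF response element, was searched on both strands of RefSeq promoter windows on GRCh38.p14 that run from 250 bases before to 50 after a gene's start. Of 40 windows for 26 of the 33 genes 6 held it (15%), against 3.62% of all 35116 windows. The set was listed for known ATF4 targets and regulators, so this comparison carries no test. The 30 bases around each match are shown because their genes include 2 that fell and 1 that rose, with the motif in capitals, written 5′ to 3′ on the gene's own strand.
ASNS: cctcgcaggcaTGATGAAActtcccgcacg
CEBPG: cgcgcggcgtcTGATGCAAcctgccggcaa
ATF3: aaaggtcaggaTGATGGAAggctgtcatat
CHAC1: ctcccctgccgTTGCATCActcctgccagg
HERPUD1: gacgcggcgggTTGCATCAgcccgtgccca
JDP2: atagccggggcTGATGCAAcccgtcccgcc
In CHAC1 and HERPUD1 the motif lies on the opposite strand, so the capitals show its reverse complement. ASNS at chr7:97872458-97872487 (minus strand) and CEBPG at chr19:33374060-33374089 (plus strand) fell. ATF3 at chr1:212565205-212565234 (plus strand) rose. CHAC1 (chr15:40953251-40953280), HERPUD1 (chr16:56931955-56931984) and JDP2 (chr14:75427995-75428024), all on the plus strand, did not pass. Over the 9764 tested genes with a window, 255 held the motif, of which 26 rose and 31 fell (22.4%). Their median log2 fold change was -0.0031, against 0.0019 over the tested genes with a window. The share called was close to the 22.9% of all genes tested. A match is a string of letters and not a measured binding site.

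The promoter of ASNS, the gene of the set with the largest fall, is shown at greater length, with its motif 68 bases before the start. These are the 250 bases before 1 of the 2 RefSeq starts of ASNS (chr7:97872409-97872658, minus strand), with the motif in capitals.
ASNS: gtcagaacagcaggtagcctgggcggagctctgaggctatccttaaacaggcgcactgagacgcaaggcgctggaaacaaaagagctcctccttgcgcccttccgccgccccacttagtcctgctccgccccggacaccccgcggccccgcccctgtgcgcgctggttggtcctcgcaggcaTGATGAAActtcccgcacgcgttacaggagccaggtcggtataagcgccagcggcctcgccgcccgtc
For comparison, the 250 bases before the upstream start of ATF3 (chr1:212565157-212565406, plus strand), a gene that rose, hold the motif 191 bases before the start.
ATF3: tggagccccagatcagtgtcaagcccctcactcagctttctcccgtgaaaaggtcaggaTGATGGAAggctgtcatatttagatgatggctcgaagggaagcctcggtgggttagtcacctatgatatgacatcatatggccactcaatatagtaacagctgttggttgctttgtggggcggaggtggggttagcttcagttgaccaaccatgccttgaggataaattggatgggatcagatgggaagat

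Among the transcription factors, ATF5 and ATF3 rose, CEBPG fell and ATF4 did not pass. ATF4 (chromosome 22, 39520559 to 39522686, GRCh38.p14) had 782, 990 and 1091 counts in the MUT libraries, against 615 and 853 in the WT libraries. On the scaled level that was 249, 261 and 280 CPM in MUT, against 307 and 279 CPM in WT, and the groups overlapped. Its log2 fold change was -0.15 (95% interval -0.35 to 0.04), with an adjusted p of 0.262 in edgeR. The interval leaves room for a fall and for a small rise. How much of the ATF4 count comes from its upstream reading frames is unknown, since no source used here says which part of a gene was counted.

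ATF5, a close relative of ATF4 whose mRNA carries the same kind of upstream reading frames, had the largest rise of the set. It had 179, 238 and 243 counts in the MUT libraries, against 64 and 87 in the WT libraries. The level was 60.7 ± 3.22 CPM in MUT (SD, n = 3) and 30.2 ± 2.49 CPM in WT (SD, n = 2), and the lowest MUT library, at 56.9 CPM, stood well above the highest WT library, at 32 CPM. The fold was 2.03 (log2 fold change 1.02, SE 0.147, edgeR adjusted p 3.27e-05). ATF5 lies on chromosome 19 at 49928906 to 49933935.

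ATF3, a stress-induced factor that lies downstream of ATF4 and of other pathways, had 138, 197 and 209 counts in the MUT libraries, against 62 and 88 in the WT libraries. Its level was 43.9, 51.9 and 53.6 CPM in MUT, against 31 and 28.8 CPM in WT, with no overlap. The rise was 1.68-fold (edgeR adjusted p 0.00138). ATF3 lies on chromosome 1 at 212565407 to 212620777.

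CEBPG, a C/EBP protein that pairs with ATF4 on amino acid response elements, fell. It had 155, 162 and 169 CPM in the MUT libraries, against 212 and 212 CPM in the WT libraries, so the groups were apart and the WT libraries nearly equal. The log2 fold change was -0.39 (SE 0.0926, edgeR adjusted p 0.00413). CEBPB, another partner, had 83.9 ± 6.68 CPM in MUT (SD, n = 3) and 84.5 ± 4.4 CPM in WT (SD, n = 2), with a 95% interval of its log2 fold change from -0.25 to 0.22. DDIT3, also known as CHOP and linked to death under lasting stress, had 38.2, 29.8 and 31.3 CPM in MUT, against 30 and 27.8 CPM in WT, and the groups overlapped (log2 fold change 0.20, adjusted p 0.443 in edgeR). JDP2, a repressor that pairs with AP-1 proteins, had a log2 fold change of 0.27 (adjusted p 0.351 in edgeR). NUPR1, a stress-induced chromatin protein, had 0, 2 and 0 counts in MUT and 1 and 0 in WT, too few to test.

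**Figure D2:**
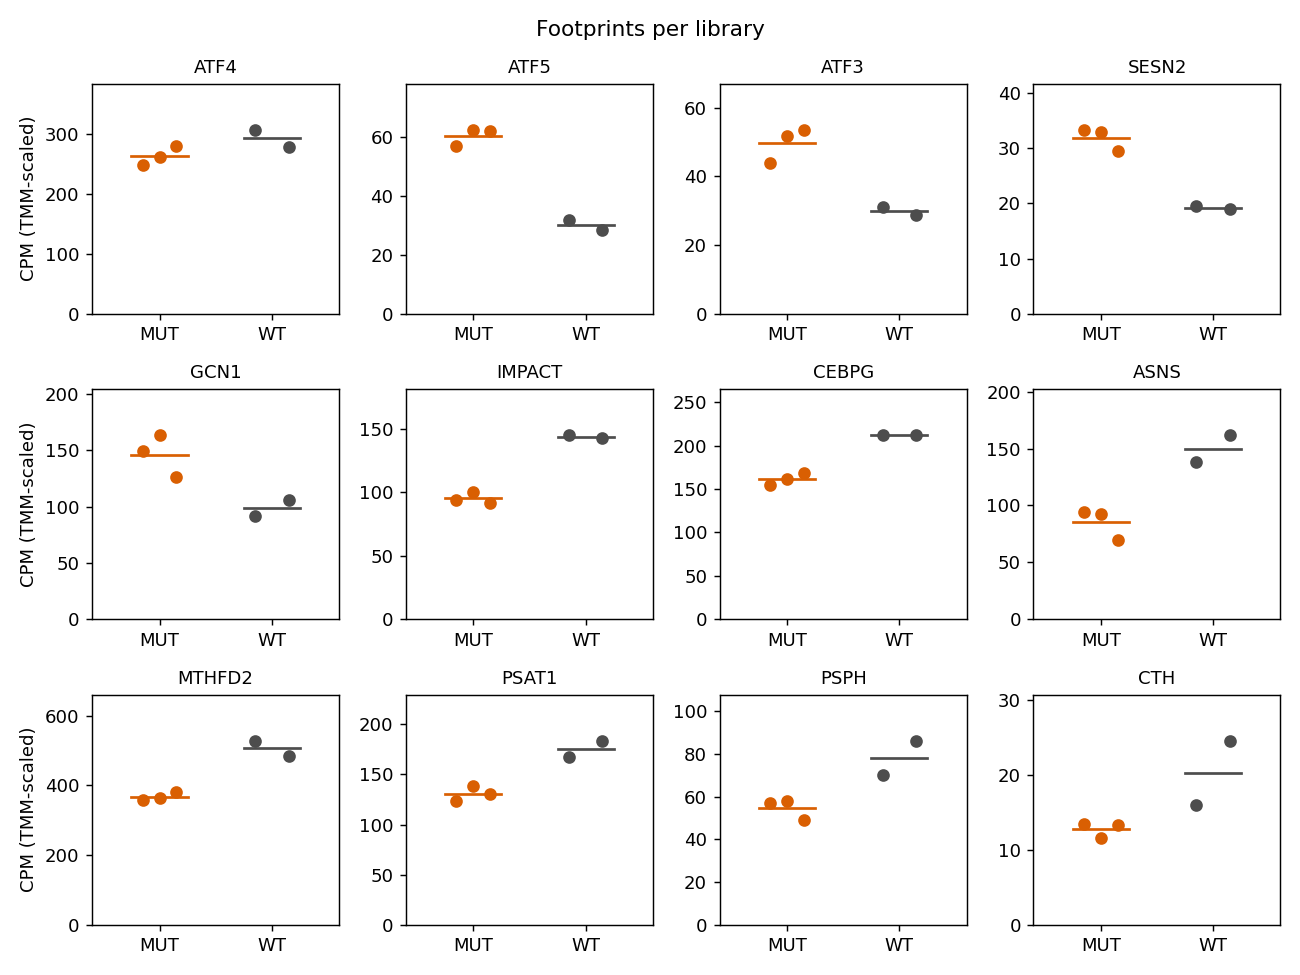
Scaled footprint level (CPM) of ATF4 and of the 11 genes past the threshold, with each library as a point and the group mean as a line, MUT on the left and WT on the right. ATF4 overlaps between the groups, while in each of the 11 other panels the MUT libraries lie on one side of both WT libraries. Those 11 genes were picked by the test on the same libraries, and 50.7% of all genes tested were separated this way.

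Ratios of counts inside a library do not depend on how the libraries were scaled, and they show the same split between ATF4 and its relatives. These ratios were picked after the values were seen and carry no test. They compare libraries and not the levels of the genes, whose lengths differ. The ratio of ATF5 to ATF4 counts was 0.229, 0.24 and 0.223 in the MUT libraries, against 0.104 and 0.102 in the WT libraries, 2.24 times as high on average. ATF3 to ATF4 was 0.176, 0.199 and 0.192 in MUT, against 0.101 and 0.103 in WT. ASNS to ATF4 ran the other way, with 0.377, 0.355 and 0.25 in MUT, against 0.449 and 0.58 in WT. In each of these ratios the MUT and WT libraries did not overlap. ATF5, ATF3 and ASNS had already been called on the same libraries, so their ratios to ATF4 largely repeat those calls. By their own levels, 50.7% of all genes tested were separated between the groups.

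**Figure D3:**
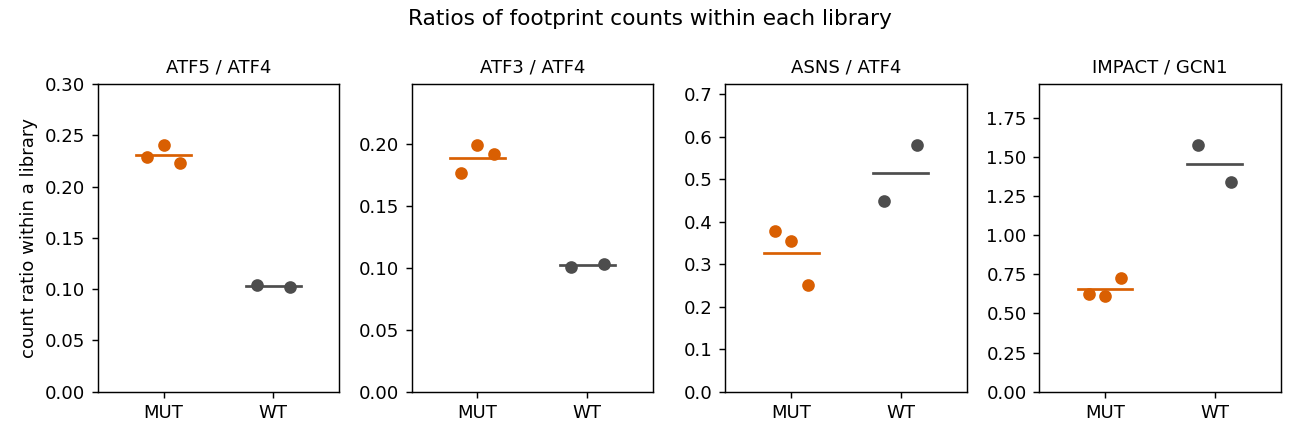
Ratio of the footprint counts of ATF5, ATF3 and ASNS to those of ATF4, and of IMPACT to GCN1, within each library (points) with group means (lines), MUT left and WT right. The ATF5 to ATF4 ratio averaged 0.231 in MUT and 0.103 in WT, and the IMPACT to GCN1 ratio 0.655 in MUT and 1.46 in WT.

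Of the 6 stress effectors SESN2 rose and 5 did not pass. That is 16.7% called, against 22.9% of all genes tested (10% higher and 12.9% lower). SESN2, a sestrin that restrains mTORC1 when leucine is short, had 105, 125 and 115 counts in the MUT libraries, against 39 and 58 in the WT libraries. The level was 31.9 ± 2.12 CPM in MUT (SD, n = 3) and 19.2 ± 0.363 CPM in WT (SD, n = 2), without overlap, a 1.66-fold rise (edgeR adjusted p 0.00591). Without WT replicate 2 the call was lost (0.0736, the highest over the alternatives, which went down to 0.000879), with a log2 fold change of 0.72. CHAC1, which breaks down glutathione and is a sensitive target of ATF4, had 49, 47 and 36 counts in MUT, against 14 and 26 in WT. All 3 MUT libraries were above both WT libraries (15.6, 12.4 and 9.24 CPM in MUT, against 6.99 and 8.5 CPM in WT), but the counts were low and the log2 fold change of 0.64 (95% interval -0.01 to 1.28) missed the threshold (edgeR adjusted p 0.144). Its adjusted p was 0.04996 with the replicate number as a block, the lowest over the alternatives, which reached 0.388.

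TRIB3, a pseudokinase that feeds back on ATF4, had 65.2, 51.3 and 50.3 CPM in the MUT libraries, against 59.9 and 49.4 CPM in the WT libraries, and the groups overlapped. DDIT4, an mTORC1 inhibitor also known as REDD1, had 29.9 ± 4.47 CPM in MUT (SD, n = 3) and 33.7 ± 4.58 CPM in WT (SD, n = 2). HERPUD1, a protein of endoplasmic reticulum degradation, and XPOT, which exports tRNA from the nucleus, had log2 fold changes of -0.18 and -0.13. The MUT libraries of these last 2 genes were below both WT libraries, yet their adjusted p values were 0.309 and 0.324 in edgeR. The 95% interval of the log2 fold change of TRIB3 ran from -0.26 to 0.33, so these libraries do not settle the direction for this well-known target.

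Among the 6 enzymes of serine, glycine and folate metabolism 5 were tested, of which 3 fell, none rose and 2 did not pass. Over all genes tested 12.9% were called lower. With 5 genes, these calls cannot give the pathway a direction. Summed over the 6 genes, the footprint level was 787, 815 and 768 CPM in the MUT libraries, against 1024 and 979 CPM in the WT libraries. Much of that sum is MTHFD2, the mitochondrial enzyme that oxidises methylene-tetrahydrofolate. MTHFD2 had 358, 364 and 381 CPM in MUT, against 529 and 484 CPM in WT, with no overlap and a 1.37-fold fall (log2 fold change -0.46, SE 0.0929, edgeR adjusted p 0.00106). It lies on chromosome 2 at 74198615 to 74217565.

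Of the 3 enzymes from 3-phosphoglycerate to serine, PSAT1 and PSPH fell and PHGDH did not pass. PHGDH, the first enzyme, had 56, 55 and 42.6 CPM in the MUT libraries, against 55.9 and 51.7 CPM in the WT libraries, which overlapped (95% interval of the log2 fold change -0.37 to 0.23). PSAT1, the second, had 123, 139 and 130 CPM in MUT, against 168 and 184 CPM in WT, a 1.35-fold fall (edgeR adjusted p 0.00258). PSPH, the last, had 56.9, 57.9 and 49 CPM in MUT, against 70.4 and 86.3 CPM in WT, a 1.45-fold fall (edgeR adjusted p 0.00413). The ratio of PSAT1 to PHGDH counts was 2.20, 2.52 and 3.05 in MUT, against 3 and 3.56 in WT, and the groups overlapped. Neither PSAT1 nor PSPH overlapped between the groups, but both calls ended without WT replicate 2, the higher WT library for both. The adjusted p was then 0.0751 for PSAT1 and 0.183 for PSPH, the highest over their alternatives, which went down to 7.36e-05 and 0.00134. SHMT2, the mitochondrial enzyme that makes glycine from serine, had 184 ± 18.2 CPM in MUT (SD, n = 3) and 185 ± 19.8 CPM in WT (SD, n = 2). ALDH1L2, a mitochondrial folate enzyme, had 8, 7 and 7 counts in MUT and 3 and 4 in WT and was not tested.

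ASNS, the enzyme that makes asparagine and a classical target of ATF4, had the largest fall of the set. It had 295, 351 and 273 counts in the MUT libraries, against 276 and 495 in the WT libraries. The level was 93.8, 92.4 and 70 CPM in MUT, against 138 and 162 CPM in WT, so the highest MUT library was well below the lowest WT library. The fall was 1.77-fold (log2 fold change -0.82, SE 0.118, edgeR adjusted p 3.19e-05), and over the 14 alternatives its log2 fold change lay between -0.93 and -0.69. ASNS lies on chromosome 7 at 97851677 to 97928441.

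ASNS is 1 of 7 amino acid enzymes outside serine and folate metabolism, of which 2 fell, ASNS and CTH, and 5 did not pass. That is 28.6% called, against 22.9% of all genes tested (10% higher and 12.9% lower). CTH, which makes cysteine from cystathionine, had 42, 44 and 52 counts in the MUT libraries, against 32 and 75 in the WT libraries. At 13.4, 11.6 and 13.3 CPM in MUT, against 16 and 24.5 CPM in WT, the groups did not overlap but the WT libraries were far apart. Its log2 fold change of -0.71 (edgeR adjusted p 0.0321) became -0.32 without WT replicate 2 (0.567). The call was lost in 6 of the 14 alternatives, with adjusted p values from 0.0548 to 0.567. CBS, the step before CTH, had 15 or fewer counts in every library, and the 95% interval of its log2 fold change ran from -0.67 to 2.00.

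The proline enzymes ALDH18A1 and PYCR1 differed little, with 123 ± 3.43 CPM in MUT (SD, n = 3) and 116 ± 14.4 CPM in WT (SD, n = 2) for ALDH18A1. PYCR1 had 240 ± 3.79 CPM in MUT (SD, n = 3) and 231 ± 32.5 CPM in WT (SD, n = 2). Their log2 fold changes were 0.07 (95% interval -0.14 to 0.28) and 0.06 (95% interval -0.14 to 0.27). PCK2, the mitochondrial enzyme that makes phosphoenolpyruvate, had 36.6, 30 and 23.3 CPM in MUT, against 40.5 and 37.6 CPM in WT. All MUT libraries of PCK2 were lower, but its log2 fold change of -0.39 missed the threshold (edgeR adjusted p 0.119). GPT2, a mitochondrial alanine aminotransferase, had 26.9 ± 3.55 CPM in MUT (SD, n = 3) and 31.6 ± 5.78 CPM in WT (SD, n = 2).

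None of the 3 tested genes for secreted proteins passed in edgeR or in the alternatives, and none had an unadjusted p under 0.05. GDF15, a stress cytokine, had 44.2, 32.4 and 36.2 CPM in the MUT libraries, against 42 and 28.1 CPM in the WT libraries, and the WT libraries spanned most of the MUT range. VEGFA, a growth factor for blood vessels, had 36.2 ± 3.56 CPM in MUT (SD, n = 3) and 40.8 ± 3.09 CPM in WT (SD, n = 2). STC2, a secreted glycoprotein, had 31.3 ± 3.17 CPM in MUT (SD, n = 3) and 33.3 ± 3.11 CPM in WT (SD, n = 2). VLDLR, a lipoprotein receptor, had 2, 2 and 1 counts in MUT and 4 and 3 in WT and was not tested.

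The 2 regulators of GCN2, the kinase that senses uncharged tRNA, moved in opposite directions. GCN1, a ribosome-bound protein that activates GCN2, had 469, 621 and 491 counts in the MUT libraries, against 184 and 325 in the WT libraries. Its level was 149, 164 and 126 CPM in MUT, against 91.9 and 106.3 CPM in WT, a 1.46-fold rise without overlap (edgeR adjusted p 0.00149). IMPACT, which competes with GCN2 for GCN1, had 93.5, 100.1 and 91.3 CPM in MUT, against 145 and 143 CPM in WT, a 1.51-fold fall without overlap (edgeR adjusted p 0.000172). The ratio of IMPACT to GCN1 counts was 0.627, 0.612 and 0.725 in MUT, against 1.58 and 1.34 in WT, 2.23 times as high on average in WT. GCN1 lies on chromosome 12 at 120127202 to 120194715 and IMPACT on chromosome 18 at 24426670 to 24453531.

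Upstream of ATF4, 23 genes for eIF2, its kinases, its exchange factor eIF2B, its phosphatases and related factors were tested. Among them 1 rose and 7 fell (34.8% called), with a median log2 fold change of -0.16. Over all genes tested 22.9% were called, 10% as higher and 12.9% as lower. An unadjusted p under 0.05 was found for 13 genes of the list (56.5%), against 35.8% of all genes tested. EIF2B4, a subunit of the exchange factor, rose, with 33.7, 50.6 and 39.3 CPM in the MUT libraries, against 21.5 and 27.1 CPM in the WT libraries (edgeR adjusted p 0.0061). EIF2S3, the gamma subunit of eIF2, had 450 ± 25.4 CPM in MUT (SD, n = 3) and 581 ± 23.2 CPM in WT (SD, n = 2) and fell (edgeR adjusted p 0.00688). The phosphatase catalytic subunits PPP1CB and PPP1CC, which serve many pathways beside this one, fell 1.34-fold and 1.27-fold (edgeR adjusted p 0.00258 and 0.00927). With MUT replicate 1 left out 1 gene of the list fell, and the share called over all genes was 13.6%. EIF2S3 and PPP1CC then lost their calls (edgeR adjusted p 0.0719 and 0.0657, the highest over their alternatives). Their log2 fold changes were both -0.33 there, against -0.37 and -0.34 with all libraries. Without WT replicate 1 the log2 fold change of EIF2B4 was 0.60, against 0.74 with all libraries. The cause of these moves was not tested.

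The transporters and tRNA synthetases that ATF4 is known to induce included 0 that rose and 4 that fell among 22 tested. That is 18.2% called, with a median of -0.07, against 22.9% of all genes tested (10% higher and 12.9% lower). An unadjusted p under 0.05 was found for 6 (27.3%), against 35.8% of all genes tested. None of the list rose under the alternatives either. SLC38A2, an amino acid transporter whose mRNA responds to amino acid shortage, had 358, 347 and 404 CPM in the MUT libraries, against 537 and 513 CPM in the WT libraries, with a log2 fold change of -0.50 (edgeR adjusted p 0.000625). LARS1, TARS1 and EPRS1, synthetases of leucine, threonine, and glutamate and proline, had log2 fold changes of -0.30, -0.27 and -0.34. Their adjusted p values of 0.0233, 0.042 and 0.0459 in edgeR were near the threshold, and each call ended in 8 of the 14 alternatives. Of the list 1 gene fell without WT replicate 2 or without MUT replicate 3, and 2 fell without WT replicate 1. EPRS1 overlapped between the groups and was at -0.08 without WT replicate 2 (0.781, with 0.00233 to 0.781 over its alternatives).

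Genes of the endoplasmic reticulum arm, chaperones and other factors together with ATF6, XBP1 and ERN1 themselves, showed 0 that rose and 2 that fell among 22 tested. That is 9.09% called, against 22.9% of all genes tested, with a median log2 fold change of 0.05. An unadjusted p under 0.05 was found for 6 of them (27.3%), against 35.8% of all genes tested. The chaperone HSPA5 (BiP) had a log2 fold change of 0.10 (adjusted p 0.578 in edgeR), a value chosen after it was seen. SEL1L, of the degradation complex, and MANF, a secreted stress protein, fell, with adjusted p values of 0.0243 and 0.0311 in edgeR and calls that ended in 5 (SEL1L) and 8 (MANF) of the 14 alternatives. With library size only, or with upper-quartile scaling, 2 genes of this list rose and 0 or 1 fell. Without WT replicate 1 or MUT replicate 1 none of the list fell, and without WT replicate 2 or MUT replicate 2 it was 1.

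Across all genes the fold change moved with gene density, so the position of each gene was set beside its value. From the fifth of tested genes with the fewest protein-coding genes within 500 kb (1 to 6) to the fifth with the most (28 to 76), the median log2 fold change went from -0.10 to 0.18. Across genes Pearson's r was 0.21, and across the 30 members 0.41, a description over genes measured in the same 5 libraries. Of the members that rose, ATF5 lay among 40 such genes, GCN1 among 20, SESN2 among 19 and ATF3 among 12. Of those that fell, MTHFD2 lay among 31, CEBPG and PSPH among 12, ASNS among 8, IMPACT among 5, CTH among 4 and PSAT1 among 3. With the trend of density and gene span removed from each library, an alternative added after seeing the data, 7.46% of all genes were called higher and 11.9% lower (19.3% in all), and 4 members rose and 7 fell. Among the called members that rose, ATF5 (0.82), SESN2 (0.67) and GCN1 (0.45) had log2 fold changes nearer 0 than before. Among those that fell, so did ASNS (-0.75), CTH (-0.55), PSPH (-0.51), IMPACT (-0.45), PSAT1 (-0.29) and, slightly, CEBPG (-0.38). MTHFD2 lay farther from 0, at -0.62 (edgeR adjusted p 3.94e-05), and ATF3 slightly so, at 0.76. CTH lost its call (0.0963) and PCK2 passed at -0.60 (0.0178), and the base composition of the transcripts themselves was not tested.

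**Figure D4:**
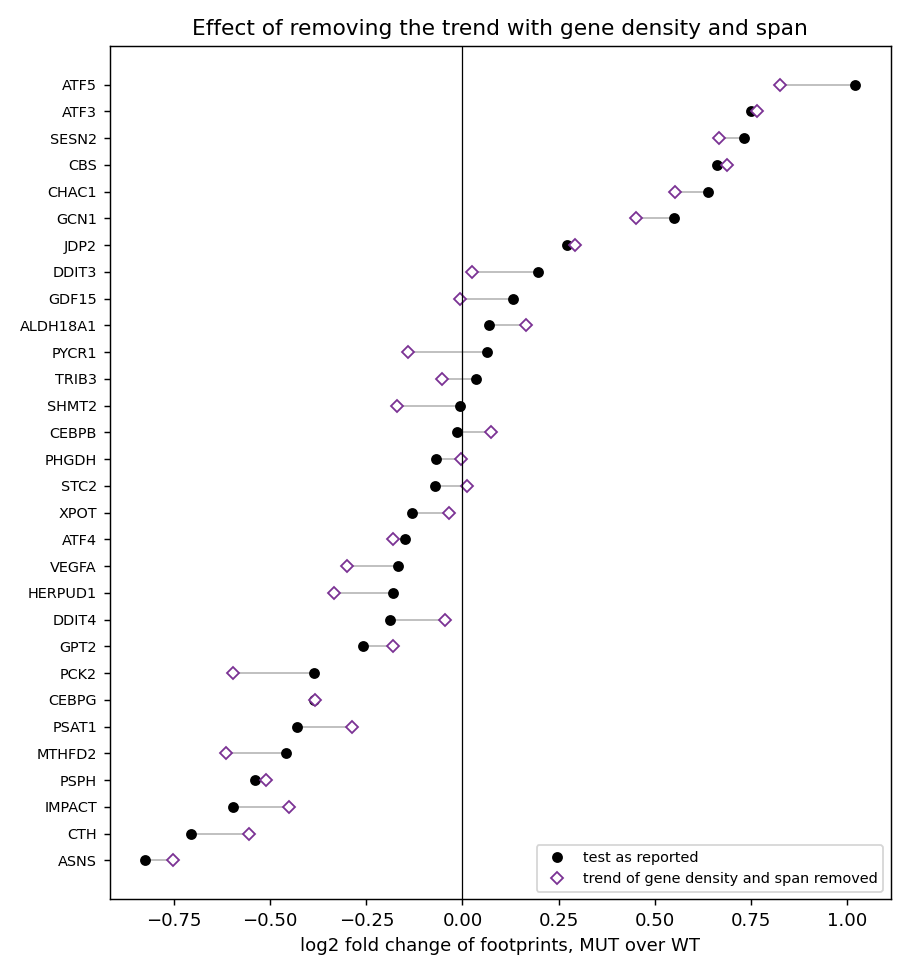
Log2 fold change (MUT over WT) of the 30 tested genes in the test as reported (filled circles) and after removal of the density and span trend (open diamonds). ATF5 moved to 0.82 and PCK2 to -0.60, and none of the 11 genes past the threshold changed sign.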

How the data were processed

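The authors deposited raw counts of ribosome-protected fragments per gene, whole numbers not normalized. Per the labels' protocols, MNase digestion and a sucrose gradient gave monosomes, whose short fragments were isolated by size, cleared of rRNA and sequenced from a small-RNA kit. STAR 2.5.2b, cutadapt 4.6, FastQC 0.12.1, DESeq2 1.42.0 and the build hg38 are listed per the submitters' processing notes. Not given in the sources used here are the counting tool, annotation, counted part of a gene, strand use and treatment of reads with several matches. The table's first header cell joins 2 names, so columns were read by the order of the 5 sample codes. A sheet of sample labels and any RNA libraries were not used here.

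The test was edgeR 4.0.16 in R 4.3.3 (filterByExpr with minimum count 10 and total 15, TMM, quasi-likelihood F test, 3 residual degrees of freedom) on the whole table with Benjamini-Hochberg adjustment. Intervals are at 95%. All 10 pairs of libraries differed beyond counting error (chi-square per degree of freedom 1.89 to 7.67). The test was checked on simulated counts. Positions come from RefSeq (GRCh38.p14), where 17077 of the table's names matched by symbol. Members and gene lists were chosen with earlier results of these data known. Named genes are all members, EIF6 and, of the genes past the threshold in each related list, at most 4 taken by lowest p. HSPA5 and the markers were added. Alternatives were other scalings, DESeq2, limma-voom, other filters, a replicate block and leaving out each library.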

Additional observations from a re-analysis of the deposited data

How the results depend on the processing

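All 11 called members had the same sign in all 14 alternatives. ATF5, ATF3, GCN1, ASNS, IMPACT, MTHFD2 and CEBPG (7 of the 11) stayed past the threshold throughout. SESN2, PSAT1 and PSPH lost their calls without WT replicate 2, and CTH in 6 alternatives; the cause was not tested. The members that rose numbered 3 to 5 when 1 library was left out or a setting changed, and those that fell 4 to 7, with 4 without WT replicate 2. With the replicate block 5 members rose and 7 fell, 5 transporter and synthetase genes fell, and 2 eIF2 genes rose and 9 fell. The members' median was -0.06 to -0.11 with 1 library left out and 0.0019 with library size only, where the median of all genes was 0.07. The difference in the members' share of counts was -0.0173 percentage points, and -0.0187 to -0.0152 with 1 library left out.

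Of the eIF2 genes 2 rose with library size only, and 4 fell with upper-quartile scaling, with library size only and with DESeq2; with 1 library left out 0 to 1 rose and 1 to 7 fell. Of the transporters and synthetases 1 fell with upper-quartile scaling, library size only and DESeq2, 2 with the density and span trend removed, and 1 to 4 with 1 library left out. Of the endoplasmic reticulum genes 2 rose with library size only and with upper-quartile scaling, 1 with the replicate block and with the trend removed, and 0 to 1 with 1 library left out. Those that fell were 1 with upper-quartile scaling, 0 with library size only, with DESeq2 and with the trend removed, 4 with the replicate block, and 0 to 2 with 1 library left out. The cause of these moves was not tested. Over all genes tested DESeq2 called 610 higher and 953 lower, where edgeR called 1203 and 1544.

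Same-numbered libraries deviated from their group means with correlations of 0.08 (replicates 1) and 0.15 (replicates 2) across genes. With 2 WT libraries the WT deviations mirror each other, so the crossed pairs repeat these values with opposite sign. They were -0.15 for WT replicate 1 with MUT replicate 2 and -0.08 for WT replicate 2 with MUT replicate 1. The correlations therefore cannot decide whether libraries were paired. No label says that a number pairs libraries, so the block is only an alternative. Of the other members, CHAC1 passed only with the block and PCK2 only with the trend removed, and EIF6 passed with the trend removed (log2 fold change -0.28, adjusted p 0.0405). The smallest library, WT replicate 1, and the low counts of CHAC1, CTH and CBS limit what could be seen.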
